A study of Homo sapiens with 24 samples.

Results

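The genes examined here were 41 listed members of the glycolytic pathway and of the hypoxia response: glucose and lactate transporters, the enzymes of glycolysis, regulators of its flux, the subunits of the hypoxia-inducible factor (HIF) with VHL, and HIF target genes. A member was used where a probe set of the array carried its symbol alone, which held for 37 of the 41, out of 18417 genes tested. PGAM1 was represented only by probe sets with several symbols, and SLC16A1, SLC16A3 and CA9 had no single-symbol probe set. These 4 members are not analysed here. By role, the measured members were 2 of 4 transporters, 16 of 17 glycolytic enzymes, all 4 flux regulators, HIF1A, ARNT and VHL, the hydroxylases EGLN1 and EGLN3, the mitophagy receptors BNIP3 and BNIP3L, and 8 of 9 other HIF targets. No dim gene was filtered out. The group means of 36 members lay above the lower quartile of the normalized log2 signal (7.79) in all 6 groups, and those of ENO2 lay below it in all 6.

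Glycolysis splits glucose into pyruvate, which is reduced to lactate or enters mitochondria through pyruvate dehydrogenase. HIF is a dimer of an oxygen-labile alpha subunit (HIF1A in most cells) and a stable partner, ARNT. When oxygen is present, prolyl hydroxylases such as EGLN1 and EGLN3 mark HIF1A for capture by VHL and destruction. When oxygen falls, the dimer binds short DNA motifs and raises genes for glucose uptake, glycolysis, the block of pyruvate entry (PDK1), the removal of mitochondria (BNIP3 and BNIP3L), vessel growth (VEGFA) and its own hydroxylases. HIF1A also serves activated monocytes and macrophages, which lean on glycolysis.

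Total RNA came from THP-1 cells, an established line from a human monocytic leukaemia, and was hybridised to 24 Human Gene ST arrays (Affymetrix), 4 in each of 6 groups. All cells carried a lentiviral cassette under a tetracycline-responsive promoter and a neomycin-resistance marker selected with G418 at 1 mg/ml. The cassette was the empty vector (the vector line), a 3X FLAG-tagged NLRP4 coding sequence (the NLRP4 line) or a 3X FLAG-tagged NOD1 coding sequence (the NOD1 line). Each line was measured uninduced and after doxycycline (DOX) at 1 µg/ml for 6 h, in wells of 50000 cells. NOD1 is a cytosolic sensor of bacterial cell wall fragments, and NLRP4 is another receptor of that family. Infection was kept under 30%, so that most transduced cells would hold 1 integration. The labels do not say whether a line was a clone or a pool, or whether its wells were separate cultures. The p-values therefore describe the variation among wells, part or all of which may be technical. In the numbering of the arrays each line forms 1 block, with uninduced before DOX-treated arrays. Line and place in this order cannot be told apart, nor can DOX and place within a line. The arrays of a group are numbered 1 to 4 below, and the number is only a name.

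Deposited array medians ran from 8.06 to 8.85, and the correlation across genes between 2 arrays of a group was 0.982 to 0.993. Values below are log2 signals after quantile normalization. DOX raised NOD1 in the NOD1 line by 4.02 and NLRP4 in the NLRP4 line by 3.84 on the log2 scale. Both introduced genes were also called above the vector line without DOX, NLRP4 in the NLRP4 line by 1.17 (adjusted p = 0.0405, groups apart) and NOD1 in the NOD1 line by 0.40 (adjusted p = 0.0299, groups overlapping), so uninduced here means without DOX. The NLRP4 call was lost without vector array 2, 3 or 4 or NLRP4 array 3 or 4 (1.00 to 1.21), and the NOD1 call without vector array 1 or 3 or NOD1 array 1 or 4 (0.35 each). The NLRP4 call was also lost in 3 other settings (1.05 to 1.13, limma adjusted p 0.215 to 0.659). These were the values as deposited, only the compared arrays fitted, and the 4 dimmest arrays left out. The NOD1 call was also lost without those 4 arrays and after centring arrays on their medians (0.38 to 0.46). Of 8 measured monocytic and myeloid markers, 7 lay above the median gene, with ITGAM below it. Of 4 T cell and 3 B cell markers, 0 did. The epithelial list had 1 of 4 above the median gene and the fibroblast list 1 of 4. Some markers moved with the line: 6 of the 8 myeloid markers were called between the uninduced NOD1 and vector lines, against 24.9% of all genes. CD68 (1.19), SPI1 (0.70), CSF1R (0.62), LYZ (0.42) and CTSG (0.37) were higher in the NOD1 line, and PTPRC (−0.31) was lower. With DOX the same 6 were called in the same directions. The epithelial marker EPCAM averaged 9.01 in the uninduced vector line and 7.12 in the uninduced NOD1 line, and it was the 1 of 4 epithelial markers called, with CDH1 at 0.11, KRT19 at −0.22 and KRT18 at −0.12. The mean level of the myeloid list ranged from 10.94 to 11.41 over the groups and that of the epithelial list from 7.87 to 8.53. The part of these markers in the results below was not tested.

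The first comparison, the NOD1 line against the vector line, asks how the members differ between the lines, first uninduced and then with DOX. Without DOX, 6 of 16 glycolytic enzymes were higher in the NOD1 line (ALDOA 1.77-fold, ENO1 1.73-fold) and 1, HK2, was lower. Also higher was the glucose transporter gene SLC2A1 (1.82-fold). The mitophagy receptors BNIP3 (2.54-fold) and BNIP3L (2.32-fold) and the kinase gene PDK1 (2.21-fold) were lower. The HIF subunits differed in opposite directions: ARNT was higher (1.77-fold) and HIF1A lower (1.41-fold). Of the 37 members 10 were called higher and 10 lower, at a limma adjusted p under 0.05 over all 18417 genes. Of all genes tested, 24.9% were called in this comparison, 13% higher and 11.9% lower, and of the members 54.1% were. The members were chosen with earlier results of these data known. All genes also include dim ones, while 36 members lay above the lower quartile of signal in all 6 groups. Here and below, the shares are therefore set side by side and are not a test of the members. Groups of 4 arrays did not overlap for 15 members, 7 higher and 8 lower, against 21% of all genes (11.1% higher and 9.84% lower). In a bulk sample, fewer cells of a type and less RNA per cell cannot be told apart.

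With DOX, 12 members were called higher and 9 lower, 56.8% of the 37, against a background of 25.8% (13.6% higher and 12.2% lower). The arrays of this comparison are all separate from those of the uninduced one, although the lines are the same. Called in both were 17 members, 9 higher (SLC2A1, GPI, PFKL, ALDOA, GAPDH, ENO1, PKM, ARNT and NDRG1) and 8 lower (HK2, PDK1, HIF1A, BNIP3, BNIP3L, VEGFA, ANKRD37 and KDM3A). Of these 17, 9 were called in each of the 17 alternative settings of both comparisons: SLC2A1, ALDOA, ENO1, PKM, PDK1, HIF1A, ARNT, BNIP3 and BNIP3L. For all genes, neither the share called in both nor the share called in every setting was counted. The split between higher and lower calls depended on the scaling. Without DOX, 10 higher and 10 lower as normalized here became 10 and 6 in the values as deposited. With DOX, PFKL, PGK1, PFKFB3 and NDRG1 lost their higher calls in the values as deposited, and VEGFA and MXI1 their lower calls. P4HA1 was then called lower.

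**Figure D1:**
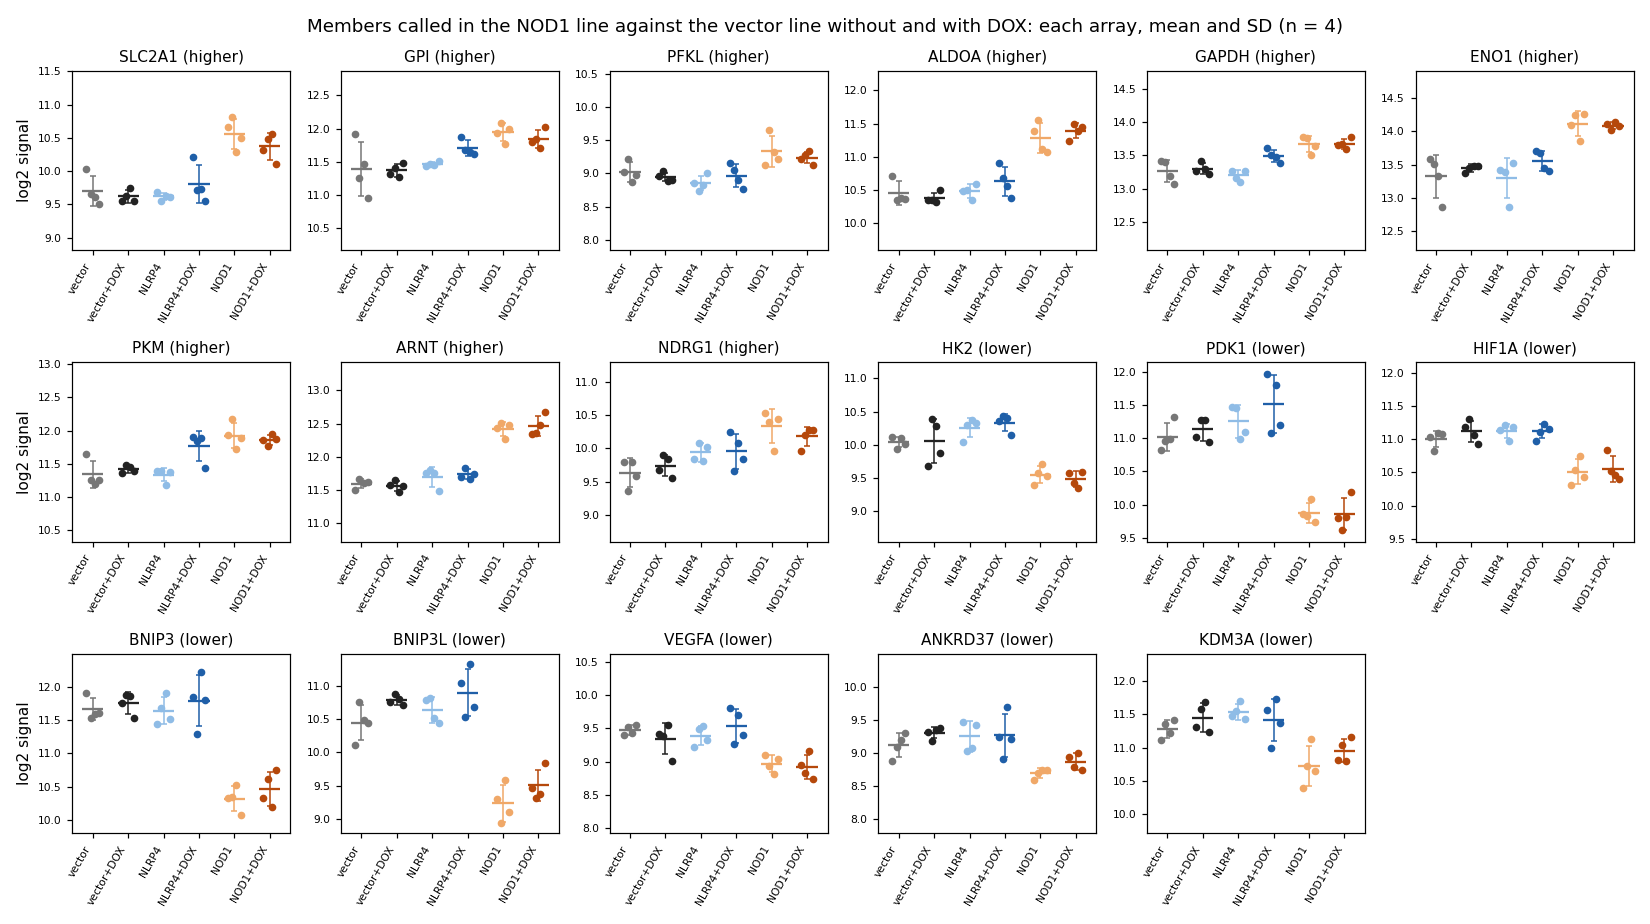
Log2 signal of each array (points) in the 6 groups for the 17 members called in the NOD1 line against the vector line both without and with DOX, with the group mean and SD (n = 4 arrays each). Axes of the panels span equal lengths but start at different values. In 6 members (BNIP3, BNIP3L, PDK1, ARNT, ALDOA and ENO1) the 8 NOD1-line arrays stand clear of the other 16. The share of all genes that do so was not counted.

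The roles did not share 1 direction. Among the 16 measured enzymes, 6 were higher and 1 lower without DOX (median difference 0.24), and 8 higher and 1 lower with DOX (median 0.21). Among the 12 hydroxylases, mitophagy receptors and other HIF targets, 1 was higher and 5 lower without DOX (median −0.27), and 1 higher and 6 lower with DOX (median −0.32). The median of all genes was 0.03 and 0.02. These are descriptions of listed genes, and the difference between the roles was not tested.

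**Figure D2:**
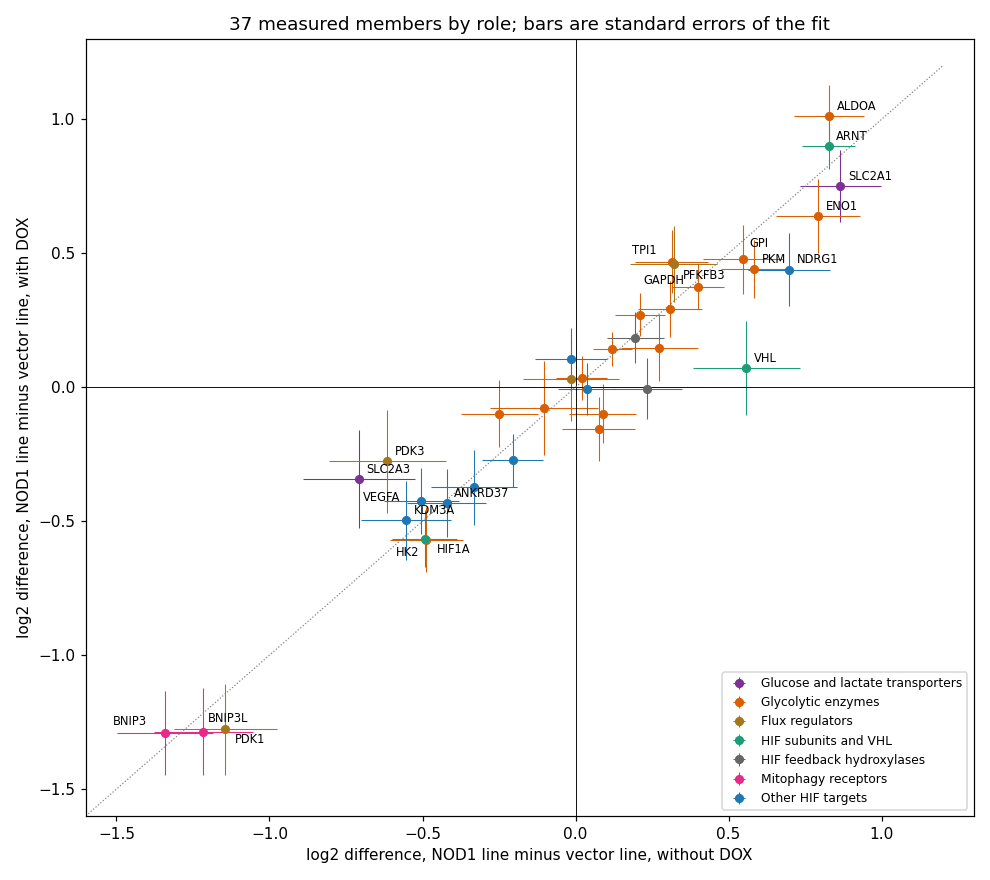
Log2 difference between the NOD1 line and the vector line without DOX (horizontal axis) and with DOX (vertical axis) for the 37 measured members, coloured by role, with standard errors of the fit as bars and the line of equal differences dotted. The members farthest from 0 are named. Of the 16 glycolytic enzymes 11 lie above 0 on both axes, called or not, and BNIP3, BNIP3L and PDK1 lie at the lower left.

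Sequences before the gene start are shown for members on each side of this contrast, since the HIF dimer is known to bind the core motif ACGTG or GCGTG. The 250 bases before a gene's start were read from RefSeq, build GRCh38.p14, and searched on both strands, so that a palindromic CACGTG counts on each strand. BNIP3 (chr10:131981924-131982173, minus strand) had 6 matches, ANKRD37 (chr4:185396591-185396840, plus strand) 3 and HK2 (chr2:74833877-74834126, plus strand) 3, all lower in the NOD1 line. ENO1 (chr1:8878687-8878936, minus strand) and GAPDH (chr12:6535014-6535263, plus strand), both higher, had 2 each. LDHA (chr11:18394313-18394562, plus strand), which was called in neither, had 5. These windows were chosen after their matches were seen, to show the motif. At the same kind of start the other lower members had 1 (HIF1A), 1 (KDM3A) and 0 (PDK1), and the other higher members 1 (ALDOA, GPI and PFKL) or 0 (SLC2A1, PKM and ARNT). The start farthest 5′ is used where a gene has several, as HK2 and LDHA do. Each run reads 5′ to 3′ on the gene's strand, and capitals mark the motif on either strand.
BNIP3: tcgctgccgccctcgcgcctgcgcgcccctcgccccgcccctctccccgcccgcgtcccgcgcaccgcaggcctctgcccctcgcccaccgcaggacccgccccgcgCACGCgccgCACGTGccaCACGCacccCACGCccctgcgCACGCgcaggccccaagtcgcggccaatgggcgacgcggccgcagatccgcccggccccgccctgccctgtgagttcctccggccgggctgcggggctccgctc
ANKRD37: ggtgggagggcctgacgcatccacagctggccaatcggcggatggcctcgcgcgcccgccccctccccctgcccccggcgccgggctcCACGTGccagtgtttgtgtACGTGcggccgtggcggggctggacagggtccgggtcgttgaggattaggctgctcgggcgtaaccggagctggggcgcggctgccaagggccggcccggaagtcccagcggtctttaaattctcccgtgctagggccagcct
HK2: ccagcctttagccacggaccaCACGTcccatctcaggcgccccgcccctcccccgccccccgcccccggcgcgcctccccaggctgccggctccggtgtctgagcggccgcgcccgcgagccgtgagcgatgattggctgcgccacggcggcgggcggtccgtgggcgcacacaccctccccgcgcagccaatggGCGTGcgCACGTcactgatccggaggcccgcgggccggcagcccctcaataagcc
ENO1: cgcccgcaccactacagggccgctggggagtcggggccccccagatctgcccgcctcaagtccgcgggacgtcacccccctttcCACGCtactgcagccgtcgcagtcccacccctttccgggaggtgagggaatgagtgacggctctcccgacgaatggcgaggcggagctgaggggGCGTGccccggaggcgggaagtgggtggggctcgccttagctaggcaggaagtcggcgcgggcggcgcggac
GAPDH: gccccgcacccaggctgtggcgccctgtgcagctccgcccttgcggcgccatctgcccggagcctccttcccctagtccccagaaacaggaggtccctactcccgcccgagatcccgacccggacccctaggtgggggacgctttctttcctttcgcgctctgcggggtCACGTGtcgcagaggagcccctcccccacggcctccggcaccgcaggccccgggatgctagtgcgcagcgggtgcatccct
LDHA: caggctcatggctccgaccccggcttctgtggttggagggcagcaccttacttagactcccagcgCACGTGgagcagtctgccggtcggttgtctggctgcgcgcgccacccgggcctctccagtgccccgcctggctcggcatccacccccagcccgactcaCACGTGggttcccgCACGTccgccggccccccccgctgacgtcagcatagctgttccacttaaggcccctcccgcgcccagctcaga

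At least 1 match lay before any listed start of 5 of 8 members higher in both comparisons, 6 of 6 members lower in both and 15 of 18 other measured members. Windows were not listed for SLC2A3, VHL, BNIP3L, VEGFA and NDRG1. Of all 27305 genes with a listed window, 47.4% had at least 1 match in any of their windows. Counted by window, 34 of the 58 windows of members (58.6%) had a match, and 43.2% of all 35116 windows did. At least 3 matches were found in 7.76% of windows, at least 5 in 1.36% and at least 6 in 0.646%. Members that were higher, lower or not called all had matches, and a match is a run of letters and not a shown binding site.

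Glucose enters through the facilitative transporters GLUT1 (SLC2A1) and GLUT3 (SLC2A3), and these moved in opposite directions. SLC2A1 read 10.03, 9.65, 9.62 and 9.50 in the 4 uninduced vector arrays and 10.66, 10.82, 10.29 and 10.49 in the uninduced NOD1 arrays. With DOX it read 9.55, 9.63, 9.75 and 9.55 in the vector line and 10.32, 10.49, 10.57 and 10.12 in the NOD1 line. Every NOD1-line array lay above every vector array, by 0.87 (SE 0.13, limma adjusted p = 2.99e-05) without DOX and 0.75 (SE 0.13, adjusted p = 0.00014) with DOX. SLC2A3 averaged 9.10 ± 0.36 (SD, n = 4) in the uninduced vector line and 8.39 ± 0.38 in the uninduced NOD1 line, a difference of −0.71 (SE 0.18, adjusted p = 0.0055) with 1 group reaching into the other. With DOX the difference of −0.34 was not called (95% interval −0.72 to 0.04, adjusted p = 0.198), although the groups did not overlap.

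At the entry step HK2 was lower, while several later enzymes were higher. HK2, the inducible mitochondria-bound hexokinase, read 10.11, 9.94, 10.10 and 10.01 in the uninduced vector arrays and 9.40, 9.58, 9.71 and 9.53 in the uninduced NOD1 arrays. It was lower, at −0.49 (SE 0.12, adjusted p = 0.00356) without DOX and −0.57 (SE 0.12, adjusted p = 0.00084) with DOX, and the groups did not overlap in either. DOX-treated vector arrays spread more (9.68 to 10.38) than the DOX-treated NOD1 arrays (9.35 to 9.59). In the values as deposited the uninduced call was lost (−0.37, adjusted p = 0.0826). HK1, the constitutive hexokinase, was at 0.09 and −0.10 and was called in neither. GPI, which turns glucose-6-phosphate into fructose-6-phosphate, read 11.91, 11.25, 11.46 and 10.96 in the uninduced vector arrays and 11.93, 12.08, 11.76 and 11.99 in the NOD1 arrays, with the first vector array inside the NOD1 range. Its difference was 0.55 (SE 0.13, adjusted p = 0.00265) without DOX and 0.48 (SE 0.13, adjusted p = 0.0076) with DOX, when the groups separated. The uninduced call fell just outside the threshold when only those arrays were fitted (0.55, adjusted p = 0.0513).

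Of the phosphofructokinase genes, whose products catalyse the committed step, PFKL alone was called. PFKL read 9.02, 9.22, 8.87 and 8.97 in uninduced vector arrays against 9.12, 9.65, 9.32 and 9.22 in NOD1 arrays, and 8.96, 9.03, 8.88 and 8.91 against 9.22, 9.27, 9.33 and 9.13 with DOX. The differences, 0.31 (adjusted p = 0.0309) and 0.29 (adjusted p = 0.04), were small, and the calls depended on single arrays. Without DOX the call was lost without vector array 1, 3 or 4 or NOD1 array 2 (0.20 to 0.31). With DOX it was lost without vector array 1, 3 or 4 or NOD1 array 1, 2 or 3 (0.26 to 0.30). PFKM stood at −0.25 and −0.10 and PFKP at 0.27 and 0.15, and neither was called.

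Aldolase A cleaves fructose bisphosphate and gave the largest enzyme difference in both comparisons. ALDOA read 10.72, 10.35, 10.39 and 10.36 in uninduced vector arrays and 11.39, 11.56, 11.12 and 11.07 in uninduced NOD1 arrays. With DOX it read 10.35, 10.35, 10.33 and 10.50 and 11.24, 11.50, 11.39 and 11.45. The lowest NOD1-line array exceeded the highest vector array both times, and the difference was 0.83 (SE 0.11, adjusted p = 7.8e-06) and 1.01 (SE 0.11, adjusted p = 5.46e-07). ALDOC, the aldolase best known from brain, was at −0.10 and −0.08, not called in either.

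In the triose steps and the first ATP-making step, GAPDH was called both times. TPI1 (brightest probe set) and PGK1 were called with DOX only. GAPDH, TPI1, PGK1, ENO1, LDHA and LDHB have processed pseudogenes, whose signal a probe set may share. TPI1, which interconverts the triose phosphates, was at 0.31 without DOX (adjusted p = 0.0566, not called) and 0.47 with DOX (SE 0.12, adjusted p = 0.00422). Its second, dimmer probe set gave 0.42 (adjusted p = 0.0649) and 0.24 (adjusted p = 0.343), not called in either. With all probe sets of a gene averaged, TPI1 was called both without and with DOX. Centring the arrays on their medians ended the call with DOX (0.46, adjusted p = 0.0707). GAPDH, which makes the first NADH of the pathway and is widely used as a reference gene, read 13.41, 13.40, 13.19 and 13.06 in uninduced vector arrays and 13.78, 13.76, 13.51 and 13.64 in NOD1 arrays. It was higher by 0.40 (SE 0.085, adjusted p = 0.000991) and with DOX by 0.38 (SE 0.085, adjusted p = 0.00167), with separate groups each time. Centring arrays on their medians left 0.28 (adjusted p = 0.276) without DOX. PGK1, the first ATP-making enzyme of the pathway, was at 0.21 (adjusted p = 0.0613) and, with DOX, 0.27 (adjusted p = 0.0145). Leaving out DOX-treated vector array 1 or NOD1 array 4 ended that call (0.22 each).

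ENO1, the widely expressed enolase, read 13.59, 13.51, 13.33 and 12.87 in uninduced vector arrays and 14.10, 14.25, 13.86 and 14.26 in NOD1 arrays, and 13.37, 13.45, 13.49 and 13.48 against 14.11, 14.02, 14.14 and 14.09 with DOX. Its difference was 0.79 (SE 0.14, adjusted p = 0.000116) and 0.64 (SE 0.14, adjusted p = 0.000993), and no arrays overlapped. ENO2, the neuronal enolase, was dim in all groups and differed by 0.08 and −0.16, not called. PKM, the pyruvate kinase of most proliferating cells, read 11.65, 11.26, 11.20 and 11.26 in uninduced vector arrays and 11.93, 12.17, 11.72 and 11.89 in NOD1 arrays, higher by 0.58 (SE 0.11, adjusted p = 0.000257). With DOX it read 11.37, 11.48, 11.45 and 11.40 and 11.86, 11.77, 11.96 and 11.87, higher by 0.44 (SE 0.11, adjusted p = 0.00341), and again without overlap.

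Neither lactate dehydrogenase gene was called. LDHA, a textbook HIF target that turns pyruvate into lactate, read 13.58, 13.54, 13.54 and 13.49 in uninduced vector arrays and 13.65, 13.64, 13.40 and 13.54 in NOD1 arrays. The difference was 0.02 (95% interval −0.15 to 0.19, adjusted p = 0.905) without DOX and 0.03 (95% interval −0.14 to 0.21, adjusted p = 0.823) with DOX. LDHB, the subunit that favours the reverse reaction, was at 0.12 (−0.01 to 0.25) and 0.14 (0.01 to 0.28). Its group means, 14.77 to 14.92, lay near the top of the signal range. The myeloid marker CTSG, at 14.87, was at the 99.8th percentile of genes. Whether a ceiling limited the LDHB difference was not tested.

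Of the 4 flux regulators, 2 were lower without DOX, and 1 was lower and 1 higher with DOX. PDK1 phosphorylates and switches off pyruvate dehydrogenase, which keeps pyruvate out of mitochondria. It read 10.82, 10.96, 10.99 and 11.31 in uninduced vector arrays and 9.85, 9.82, 10.08 and 9.74 in uninduced NOD1 arrays. With DOX the values were 11.02, 11.27, 11.28 and 10.95 and 9.79, 9.62, 9.81 and 10.19. All NOD1-line arrays lay below all arrays of the other lines, with a difference from vector of −1.14 (SE 0.17, adjusted p = 1.76e-05) and −1.28 (SE 0.17, adjusted p = 4.16e-06). PDK3, another kinase of pyruvate dehydrogenase, was lower, at −0.61 (SE 0.19, adjusted p = 0.0197) without DOX. With DOX its difference of −0.28 (95% interval −0.67 to 0.12, adjusted p = 0.338) was not called. The uninduced call was lost without vector array 1 or 2 or NOD1 array 2 or 4 (−0.58 to −0.51) and in 3 other settings. PFKFB3, which makes the activator of phosphofructokinase, was at 0.32 (adjusted p = 0.109) and higher by 0.46 (adjusted p = 0.0173) with DOX, a call lost without NOD1 array 3 (0.37). PFKFB4 was at −0.01 and 0.03.

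HIF1A and ARNT, partners in 1 dimer, differed in opposite directions. HIF1A read 11.03, 10.82, 11.08 and 11.07 in uninduced vector arrays and 10.32, 10.54, 10.75 and 10.43 in NOD1 arrays, and 11.18, 11.29, 11.07 and 10.93 against 10.83, 10.52, 10.46 and 10.40 with DOX. It was lower, at −0.49 (SE 0.11, adjusted p = 0.000995) uninduced and −0.57 (SE 0.11, adjusted p = 0.000237) with DOX, and no arrays overlapped. ARNT read 11.50, 11.66, 11.61 and 11.62 and 12.44, 12.51, 12.27 and 12.48 without DOX, and 11.57, 11.65, 11.47 and 11.56 and 12.34, 12.37, 12.48 and 12.67 with DOX. Its rise, 0.83 (SE 0.085, adjusted p = 1.69e-07) and 0.90 (SE 0.085, adjusted p = 5e-08), had the lowest p of any member in both comparisons. HIF1A is governed mainly through the stability of its protein, which an array does not measure. VHL, the substrate receptor that captures hydroxylated HIF1A, was higher by 0.56 (SE 0.18, adjusted p = 0.0201) without DOX, with overlapping groups. That call was lost without vector array 1 or 4 or NOD1 array 1 or 2 (0.45 to 0.51), and with DOX VHL differed by 0.07 (95% interval −0.29 to 0.43).

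The hydroxylases that close the feedback loop on HIF were not called. EGLN1, the main oxygen sensor, averaged 10.46 ± 0.18 (SD, n = 4) in the uninduced vector line and 10.69 ± 0.19 in the uninduced NOD1 line, a difference of 0.23 (95% interval −0.00 to 0.47). EGLN3, the isoform most induced by hypoxia, averaged 8.12 ± 0.13 and 8.32 ± 0.10, a difference of 0.20 (0.00 to 0.39). With DOX the differences were −0.00 (−0.24 to 0.23) and 0.18 (−0.01 to 0.38).

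The mitophagy receptors showed the largest falls of all members against the vector line. BNIP3 sits on the outer mitochondrial membrane and recruits the autophagy machinery, and is strongly hypoxia-induced in many cells. It read 11.90, 11.54, 11.60 and 11.61 in uninduced vector arrays and 10.33, 10.35, 10.52 and 10.07 in uninduced NOD1 arrays. With DOX it read 11.75, 11.88, 11.86 and 11.53 and 10.32, 10.61, 10.19 and 10.75. The highest NOD1-line array, 10.75, lay below the lowest array of the other lines, 11.29, and the difference from vector was −1.34 (SE 0.16, adjusted p = 9.43e-07) and −1.29 (SE 0.16, adjusted p = 1.52e-06). BNIP3L (NIX), its paralogue, which also clears mitochondria from maturing red cells, read 10.11, 10.75, 10.49 and 10.44 and 9.30, 8.94, 9.58 and 9.11 without DOX. With DOX it read 10.75, 10.88, 10.80 and 10.71 and 9.47, 9.32, 9.38 and 9.85. The difference was −1.22 (SE 0.16, adjusted p = 5.22e-06) and −1.29 (SE 0.16, adjusted p = 2.42e-06), and NOD1-line arrays again lay below all others.

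Of the 8 other measured HIF targets, 3 were lower and 1 higher without DOX, and 4 lower and 1 higher with DOX. VEGFA, the vascular growth factor, read 9.40, 9.52, 9.44 and 9.55 in uninduced vector arrays and 9.10, 8.93, 8.81 and 9.04 in NOD1 arrays. It was lower, at −0.50 (SE 0.12, adjusted p = 0.00325), and at −0.42 (SE 0.12, adjusted p = 0.0118) with DOX, where the groups overlapped. As deposited the values were −0.39 (adjusted p = 0.0967) and −0.45, and neither was called. The DOX call was also lost without the 4 dimmest arrays and without vector array 3 (−0.35 each). ANKRD37, an ankyrin repeat gene often used in hypoxia signatures, read 8.88, 9.10, 9.19 and 9.30 and 8.59, 8.70, 8.75 and 8.74 without DOX. It was lower, at −0.42 (adjusted p = 0.0162) and −0.43 (adjusted p = 0.0135), without overlap, but not in the uninduced values as deposited (−0.30, adjusted p = 0.193) or without vector array 4 (−0.36). KDM3A, a histone H3 lysine demethylase, read 11.11, 11.36, 11.22 and 11.41 and 10.39, 10.72, 11.12 and 10.65 without DOX, with 1 NOD1 array reaching the vector range. It was lower, at −0.55 (SE 0.15, adjusted p = 0.0067) uninduced and −0.50 (SE 0.15, adjusted p = 0.014) with DOX, the latter lost without vector array 3 (−0.42).

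NDRG1, a stress-responsive gene induced by hypoxia and by differentiation, read 9.80, 9.35, 9.80 and 9.58 in uninduced vector arrays and 10.54, 10.39, 9.96 and 10.44 in NOD1 arrays. It was higher by 0.70 (SE 0.14, adjusted p = 0.000389) and, with DOX, by 0.44 (SE 0.14, adjusted p = 0.0174), the latter lost without vector array 4 or NOD1 array 4 (0.37 to 0.41). MXI1, a MAX partner that opposes MYC, was at −0.20 (adjusted p = 0.146) and lower, at −0.27 (adjusted p = 0.0453) with DOX. Its call was lost without vector array 1 or 2 or NOD1 array 1, 2 or 4 (−0.29 to −0.21). The collagen prolyl hydroxylase gene P4HA1 was at −0.33 (adjusted p = 0.09) and −0.37 (adjusted p = 0.0519), not called. P4HA2 and ADM, the adrenomedullin gene, stood between −0.02 and 0.10 in both comparisons and were not called.

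Against the NLRP4 line, which carries the same cassette with another coding sequence, the members were compared in the same way. These comparisons share the NOD1-line arrays with those above, so their values are given side by side and are not a second test. Without DOX 10 members were called higher and 12 lower, 59.5% of the 37 against 27% of all genes (14.1% higher and 12.8% lower). With DOX 6 were called higher and 12 lower, 48.6% against 25.4% (13.4% higher and 12% lower). Centring arrays on their medians gave 6 higher and 12 lower without DOX and 8 higher and 9 lower with DOX. Against the NLRP4 line BNIP3 was at −1.32 and −1.32, BNIP3L at −1.40 and −1.40, and PDK1 at −1.38 and −1.65 (SE 0.17, adjusted p = 1.53e-07). HIF1A stood at −0.62 and −0.56 and ARNT at 0.72 and 0.73. SLC2A3 and P4HA1 were called lower than in the NLRP4 line both times, SLC2A3 at −0.93 and −0.79, P4HA1 at −0.57 and −0.59. Centring each array on its median ended the P4HA1 call with DOX (−0.41, adjusted p = 0.0911).

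Fewer enzymes were called against the NLRP4 line with DOX than without as normalized here, but this order depended on the scaling. After centring arrays on their medians, GPI, PFKP and GAPDH lost their uninduced calls. GAPDH was then called higher with DOX, as it was in the values as deposited. The counts that follow are as normalized here. Without DOX 7 of 16 enzymes were called higher and 1 lower. With DOX 3 were higher (ALDOA 0.76, PGK1 0.31, ENO1 0.53) and 2 lower (HK2 −0.85, ENO2 −0.44, the latter below the lower quartile of signal in both groups). PKM was at 0.59 without DOX (adjusted p = 0.00021) and 0.10 with DOX (adjusted p = 0.586), GPI at 0.48 and 0.14, and GAPDH at 0.47 and 0.18. The DOX-treated NLRP4 arrays read 11.90, 11.84, 11.89 and 11.44 for PKM, against 11.39, 11.39, 11.19 and 11.39 in the uninduced NLRP4 arrays. The change of the PKM difference with DOX was −0.49 (95% interval −0.81 to −0.17), unadjusted p = 0.00407 and limma adjusted p = 0.467 over all genes, so it did not pass.

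No member was called between the NLRP4 line and the vector line. Without DOX limma called 0 of 37 members, against 0.0163% of all genes, and 2 had an unadjusted p under 0.05, as did 4.96% of all genes: EGLN3 at 0.21 and NDRG1 at 0.30. With DOX 0 were called, against 0.038% of all genes, and 8 had an unadjusted p under 0.05 (6.11% of all genes did), each of them positive. The largest of these was SLC2A3 at 0.45 (95% interval 0.07 to 0.83, adjusted p = 0.745), and PKM at 0.34 (0.12 to 0.57) had the lowest p. BNIP3 stood at −0.02 (−0.34 to 0.31) and 0.03 (−0.29 to 0.36).

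DOX for 6 h, which raises the introduced sequence in the NOD1 and NLRP4 lines, was compared with no DOX in each line. In the vector line limma called 0 of 37 members, against 0% of all genes, with 1 at an unadjusted p under 0.05, as were 3.38% of all genes (BNIP3L at 0.34, 95% interval 0.00 to 0.68). In the NLRP4 line 0 were called, against 0.0163%, with 4 at an unadjusted p under 0.05 (8.05% of all genes), led by PKM at 0.43 (0.20 to 0.65, adjusted p = 0.337) and GAPDH at 0.29 (0.12 to 0.47, adjusted p = 0.405). In the NOD1 line 0 were called, against 0.0109%, with 2 at an unadjusted p under 0.05 (5.77% of all genes): VHL at −0.54 (−0.90 to −0.18, adjusted p = 0.632) and PFKP at −0.34 (−0.59 to −0.08, adjusted p = 0.747). VHL read 9.24, 9.11, 8.94 and 8.59 in the uninduced NOD1 arrays and 8.21, 8.49, 8.33 and 8.71 with DOX, and the groups overlapped. BNIP3 moved with DOX by 0.15 (−0.17 to 0.47) in the NOD1 line, PDK1 by −0.02 (−0.37 to 0.33) and ALDOA by 0.11 (−0.12 to 0.35), while NOD1 itself rose by 4.02.

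The DOX effects were also compared between lines. For NOD1 minus vector 0 of 37 members were called by limma, against 0.00543% of all genes, and 0 had an unadjusted p under 0.05 (4.05% of all genes). For NLRP4 minus vector 0 were called, against 0.00543%, and 2 had an unadjusted p under 0.05 (4.92% of all genes). For NOD1 minus NLRP4 0 were called, against 0.0109%, and 4 had an unadjusted p under 0.05 (8.01% of all genes), with PKM lowest as given above. The DOX effect averaged over the 3 lines called 0 members, against 0.0271% of all genes, with 5 at an unadjusted p under 0.05 (5.56% of all genes), BNIP3L lowest at 0.29 (0.10 to 0.48, adjusted p = 0.746). These intervals bound the DOX effects on the members but do not show that there was none.

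**Figure D3:**
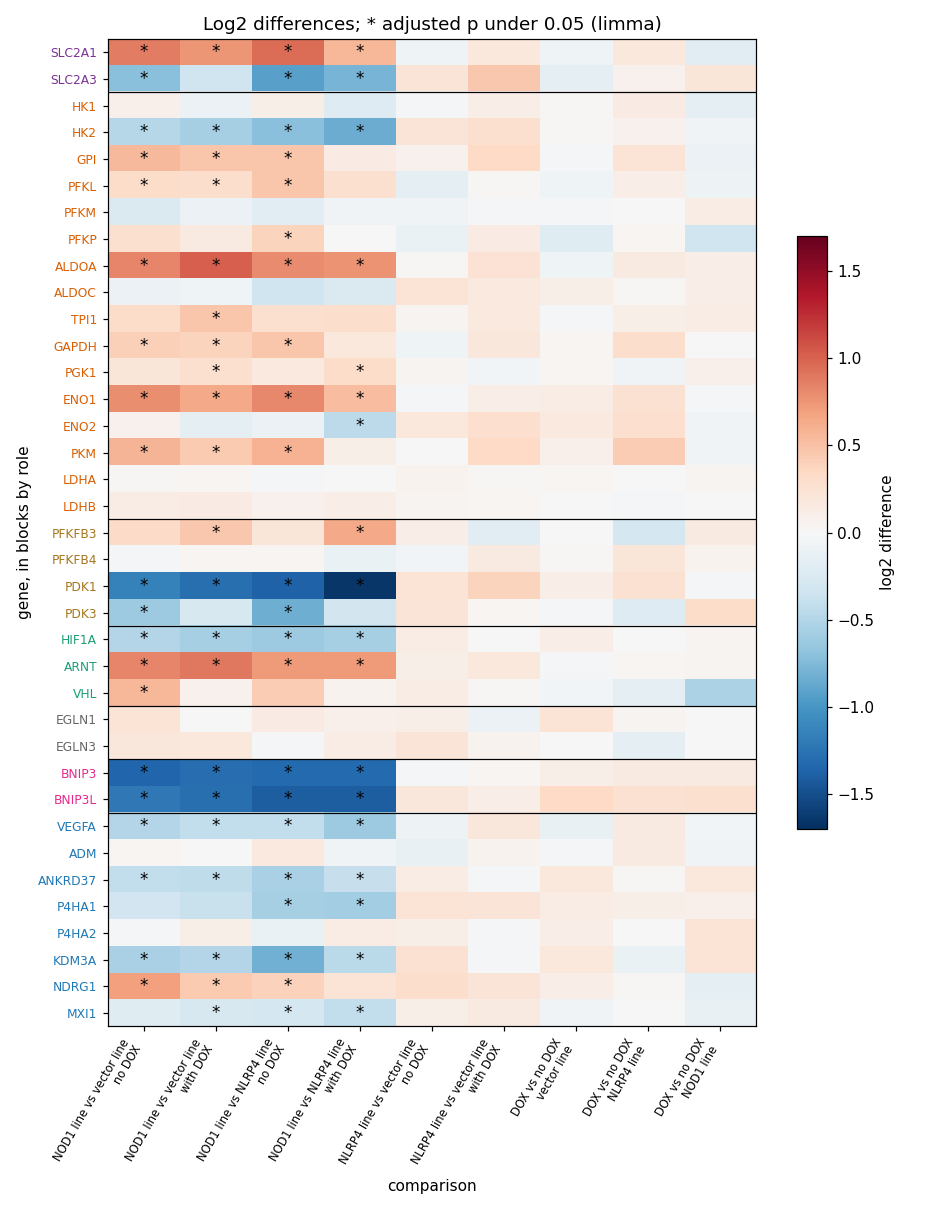
Log2 differences of the 37 measured members (rows, in blocks by role) in 9 comparisons (columns), with red for higher and blue for lower in the group named first and an asterisk at a limma adjusted p under 0.05 over all genes. Asterisks stand in the 4 columns of the NOD1 line against another line and in none of the 5 others.

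Other genes of the same pathways were counted in the NOD1 line against the vector line, from lists that hold no member. Of 38 measured genes of glycolysis, glycogen and pyruvate handling, 8 were higher and 4 lower without DOX, and 9 and 4 with DOX. FBP1, which runs the opposite way to phosphofructokinase in gluconeogenesis, was higher by 0.96 (adjusted p = 5.03e-05) and 0.93. BSG, the chaperone of lactate transporters, was higher by 0.71 and 0.84. The glycogen synthase gene GYS1 was higher by 0.80 and 0.51, the latter lost without vector array 3 or NOD1 array 2 or 3 (0.42 to 0.49). Phosphoglucomutase PGM1, which links glycogen to glycolysis, was lower, at −0.57 and −0.42. Of 11 measured regulators of HIF, 4 were higher and 1 lower both times. CITED2, which competes with HIF1A for the coactivators CBP and p300, was higher by 0.87 (adjusted p = 1.71e-06) and 0.83, and CREBBP, which encodes CBP, by 0.46 and 0.48. In the VHL ubiquitin ligase, ELOB was higher by 0.48 and 0.60 and CUL2 lower, at −0.72 and −0.91.

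Among 29 other hypoxia response genes, 5 were higher and 7 lower both times. ERO1A, the hypoxia-induced oxidase of the endoplasmic reticulum, was lower, at −1.13 (SE 0.12, adjusted p = 1.78e-07) uninduced and −1.25 (SE 0.12, adjusted p = 4.49e-08) with DOX. The transferrin receptor gene TFRC was lower, at −0.39 and −0.49, while the lipoprotein receptor gene VLDLR was higher by 0.56 and 0.45 and the lysyl hydroxylase gene JMJD6 by 0.54 and 0.49. Among 11 other mitophagy genes 2 were higher and 3 lower without DOX, and 2 and 2 with DOX. PINK1, the kinase that marks damaged mitochondria, was higher by 0.52 and 0.34, the latter lost without vector array 3 (0.29). Of the autophagy cargo receptors, SQSTM1 was higher by 0.51 and 0.56, and TAX1BP1 lower, at −0.66 and −0.79, as was CALCOCO2 at −0.42 and −0.50. The calls of these lists stand against the same backgrounds of 24.9% and 25.8%.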

How the data were processed

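Total RNA of 24 samples was measured on Affymetrix Human Gene ST arrays. The authors deposited a log2 signal for every probe set on every array, made with RMA and oligo per the submitters' processing notes. Their versions are not given in the sources read. From these, 19460 of 33297 probe sets with a single gene symbol were kept, symbols were updated by Entrez ID with RefSeq (GRCh38.p14; 19429 matched), and the brightest probe set stood for each of 18417 genes, which were quantile-normalized because the deposited arrays did not share a distribution. Signal over background was not measured, and 4 arrays a group limit the precision. With limma 3.58.1 (R 4.3.3), 6 group means were estimated per gene (18 residual degrees of freedom), with Benjamini-Hochberg adjustment over all genes in each of 13 comparisons. A gene was called at an adjusted p under 0.05. The fit was tested on simulated data in which few genes changed, in the uninduced NOD1 group only, with independent noise. It therefore did not test the scaling when many genes change, or dependence among wells. Intervals are 95% intervals of the fit. Members, roles and lists were chosen with earlier results of these data known. All measured members are named, with array values for those called in both comparisons of the NOD1 line with the vector line, and from each other list up to 4 called genes with the lowest p. HIF motifs were searched in RefSeq promoter windows.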

Additional observations from a re-analysis of the deposited data

Results flagged for a closer look

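Single arrays far from the other 3 of their group were looked for in the 37 members and 6 groups with Dixon's ratio. Of 222 such groups 12 held one, where chance gives about 1 in 20. Enzymes account for 9 of the 12 and for 96 of the 222 groups searched. ALDOA read 10.72 in uninduced vector array 1 (nearest other array 10.39) and 10.50 in DOX-treated vector array 4 (10.35). PKM read 11.65 in uninduced vector array 1 (11.26), 11.19 in uninduced NLRP4 array 3 (11.39) and 11.44 in DOX-treated NLRP4 array 4 (11.84). ALDOC read 9.48 in DOX-treated NLRP4 array 1 (8.97) and 9.21 in uninduced NOD1 array 4 (8.62). PGK1 read 11.94 in DOX-treated NLRP4 array 3 (11.80), and LDHB 14.85 in DOX-treated NOD1 array 3 (14.93). PFKFB4 read 8.84 in uninduced NOD1 array 2 (8.18), ARNT 11.48 in uninduced NLRP4 array 4 (11.75) and EGLN1 10.63 in uninduced NLRP4 array 1 (10.53). Each flagged member was fitted again without its flagged array in the line comparisons that array enters, 24 fits in all, and 1 call changed. ALDOC in the uninduced NOD1 line against the uninduced NLRP4 line was at −0.34 (limma adjusted p = 0.176) with all arrays and −0.50 (adjusted p = 0.0359) without NOD1 array 4.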

How the results depend on the processing

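Of 37 members 20 were called in the NOD1 line against the vector line without DOX, 17 to 23 with 1 array left out and 16 to 22 under 9 other settings. With DOX 21 were called, 18 to 20 with 1 array left out and 16 to 23 otherwise. Against the NLRP4 line 22 were called without DOX (19 to 24, and 18 to 24) and 18 with DOX (16 to 19, and 17 to 19). In the other 9 comparisons 0 were called under any setting run, and no called member turned its direction. The values as deposited moved the median of all genes to 0.12 without DOX and −0.21 with DOX against the NLRP4 line. GAPDH was not called without DOX against the NLRP4 line after centring each array on its median (0.27, adjusted p = 0.293), nor was ELOB against the vector line (0.34, adjusted p = 0.102). SQSTM1 was not called without the 4 dimmest arrays (0.36, adjusted p = 0.138), an alternative chosen after seeing the data. The causes were not tested. No paired analysis was possible because the labels give each array a number that no other array shares.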

Other observations

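Arrays of the DOX-treated NLRP4 line differed among themselves in the HIF targets, a pattern chosen after its values were seen. Arrays 1 and 3 were both higher than arrays 2 and 4 for 11 of the 12 measured hydroxylases, mitophagy receptors and other HIF targets, with P4HA2 the exception. The same held for 5 of 16 glycolytic enzymes, for 20 of all 37 members (54.1%) and for 18.3% of all 18417 genes. BNIP3 read 11.85 and 12.23 in arrays 1 and 3 and 11.29 and 11.80 in arrays 2 and 4. PDK1, a flux regulator outside these 12, read 11.96 and 11.80 against 11.08 and 11.20. Of the other flux regulators, PFKFB4 followed the pattern and PDK3 and PFKFB3 did not. P4HA1 read 11.84 and 11.82 against 11.20 and 11.32. These wells share line, dose and time in the labels, and what sets them apart was not tested.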
